A study of Mus musculus with 35 samples.

Results

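The mitochondrial carrier family comprised every gene of the count tables whose identifier begins with Slc25a. It held 36 of the 10731 genes counted in a first experiment and the same number of the 13233 genes counted in a second, and all 36 passed the filter on low counts in both. The mouse annotation GENCODE M21 lists 47 protein-coding genes under this name, and the other 11 names were not among the genes counted in either experiment. Members were taken by name among the genes counted, and the family was chosen with earlier results of these data known.

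Expression had been measured in brown adipose tissue of mice that lack both Suv420h enzymes, which methylate lysine 20 of histone H4, and of control mice. The first experiment held 6 knockout libraries, 5 labelled female and 1 labelled male, and 9 control libraries, 5 labelled female and 4 labelled male, from mice aged 4 weeks on a normal diet. The second held 20 libraries of female mice aged 21 weeks in 4 groups of 5: knockout on a high fat diet, control on a high fat diet, knockout on a normal diet and control on a normal diet. The high fat diet had 45 kJ% fat and lasted 14 weeks. For the knockout, alleles and any Cre driver were not given in the sources used here. Labels leave it unsaid whether replicates came from different animals, and p-values therefore speak of the spread among these libraries, part of which may be technical.

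Carriers of this family sit mostly in the inner mitochondrial membrane, which is otherwise closed to charged metabolites, and each exchanges or imports a small set of substrates. Brown fat burns fatty acids and glucose for heat, so the carriers decide how acyl groups, citrate, phosphate, nucleotides, amino acids and cofactors cross between cytosol and matrix. UCP1, the protein that lets protons back into the matrix and releases their energy as heat, belongs to the same protein family but is not named Slc25a.

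Libraries held 2398807 to 8140213 counts. In the first experiment the first principal component took 54.1% of the variance and parted the libraries into a set of 6 and a set of 9, each with libraries of both genotypes. Set 1 (knockout replicates 1 and 2 and control replicates 1, 4, 5 and 6) had 27.4% to 30.1% of its counts on mitochondrially encoded genes and summed erythroid markers of 4019 to 10369 CPM (counts scaled to library size). Set 2 had 14.1% to 20.4% and 597 to 1551 CPM. The sets parted as labelled sex did except for knockout replicate 2, and Xist went against the labelled sex in 2 libraries, knockout replicate 2 (labelled female, 1.57 CPM) and control replicate 6 (labelled male, 236 CPM). In the second experiment 29 of 29 skeletal muscle markers were counted, and their sum was 73.2 to 161 CPM in knockout high fat, 60.8 to 5556 in control high fat, 113 to 2780 in knockout normal diet and 199 to 49833 CPM in control normal diet libraries. The highest were control normal diet replicates 2, 4 and 3 with 49833, 21141 and 8824 CPM. The 12 brown adipocyte markers were all counted and summed to 11584 to 23234 CPM in these 20 libraries. Tags of Suv420h1 overlapped between all 4 groups, and those of Suv420h2 were 10.5 to 22.4 CPM in knockout normal diet libraries, against 28.9 to 75.1 CPM in control normal diet libraries. On the high fat diet Suv420h2 overlapped between genotypes, at 4.38 to 16.2 CPM in knockout and 6.72 to 27.8 CPM in control libraries. A 3′ tag outside the deleted part checks nothing.

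Levels are given as CPM with TMM-scaled library sizes. They were not divided by transcript length, because the assay primes at the poly(A) tail and counts a tag near the 3′ end of each transcript. Sums over the family or over a marker list use CPM of the plain library total instead. In bulk tissue, fewer cells of a type and less RNA per cell cannot be told apart. Summed over its 36 members the family took 4044 to 5641 CPM in knockout high fat, 4559 to 5728 in control high fat, 4511 to 5110 in knockout normal diet and 4210 to 5518 CPM in control normal diet libraries. At 4 weeks the sums were 4813 to 5685 CPM in knockout and 4922 to 5552 CPM in control libraries. The family's total therefore overlapped between all groups of an experiment.

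A few carriers held most of that total. Slc25a51, the carrier of NAD, had the highest mean level in both experiments, at 1006 CPM over the 20 older libraries and 1170 CPM over the 15 younger ones. Slc25a4, the ADP/ATP carrier ANT1 that exports the ATP made in the matrix, followed in the older libraries with 685 CPM. Lower levels were those of Slc25a1, the citrate carrier, at 382 CPM, Slc25a3, the phosphate carrier, at 370 CPM, Slc25a39, a glutathione carrier, at 365 CPM, and Slc25a20, which brings acylcarnitines into the matrix, at 299 CPM. In the older libraries the means of Slc25a1, Slc25a3 and Slc25a39 lay closer together than the SD of any of them within any of the 4 groups, so their order is not settled there. At the low end Slc25a40, a paralogue of Slc25a39, averaged 1.69 CPM.

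**Figure D1:**
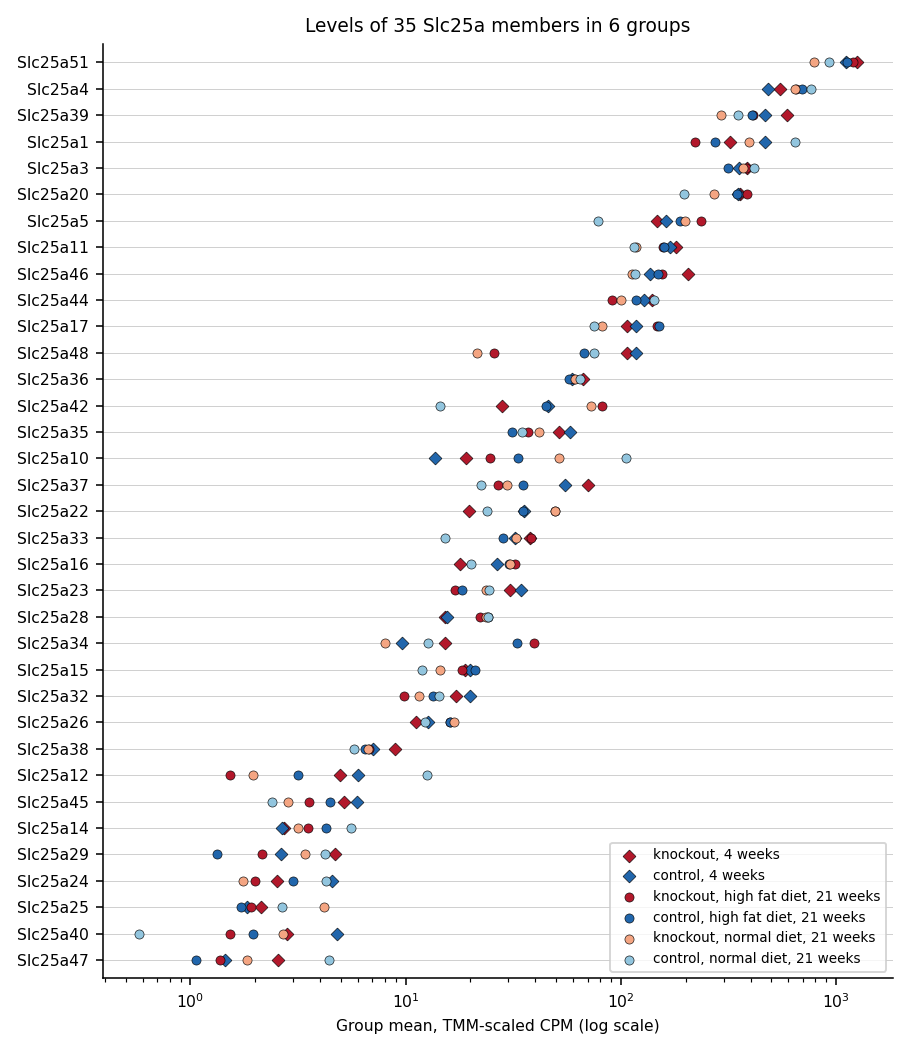
Mean level of 35 carriers in the 6 groups, in TMM-scaled CPM on a logarithmic axis, ordered by level from top to bottom. Slc25a51 is highest in every group, while Slc25a47, Slc25a40 and Slc25a25 lie at a few CPM.

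Carriers also differed in how far libraries of one group scattered. After group means were taken out, the standard deviation of the log2 level was 0.21 for Slc25a36, a pyrimidine nucleotide carrier, and 0.22 for Slc25a3 in the older libraries, against a median of 0.56 over all genes tested. It was 1.46 for Slc25a12, the aspartate/glutamate carrier aralar, 1.16 for Slc25a22, a glutamate carrier, and 1.10 for Slc25a42, the coenzyme A carrier. In the younger libraries Slc25a42 again scattered widely, with 0.78, and Slc25a11, the oxoglutarate/malate carrier, had the smallest value of the family, 0.13, against an all-gene median of 0.34. The size of change that can pass a test is thus larger for Slc25a12, Slc25a22 and Slc25a42 than for Slc25a3.

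The comparison of knockout with control tissue at 4 weeks asks whether loss of the Suv420h enzymes changes carrier expression in young brown fat. With labelled sex in the fit, 1 of the 36 members was called lower (Benjamini-Hochberg adjusted p below 0.05 over 10366 genes, edgeR's quasi-likelihood test) and none higher, against 0.83% of all genes tested called, 0.328% lower. That member was Slc25a1, which carries citrate to the cytosol, where it yields acetyl-CoA for lipid synthesis. Of the members 25 had positive changes, and their median log2 change was 0.07, against -0.01 over all genes. In the same comparison 11 of 12 brown adipocyte markers had positive changes (median 0.21, Elovl3 called), against 0 of 6 endothelial markers (median -0.30) and 4 of 21 skeletal muscle markers (median -0.78), and their part in the carriers' values was not tested. At an unadjusted p below 0.05 there were 11 members, 30.6% of the family, against 15.9% of all genes.

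Slc25a1 ran from a lowest value of 149.5 CPM over a median of 350.3 to a highest of 429 CPM in the 6 knockout libraries, against 266, 450.4 and 667 CPM in the 9 control libraries. The ranges overlapped over all libraries, but not among those of set 2, where knockout libraries reached 230.2 to 429 CPM and control libraries 450.4 to 667 CPM. Means were 321 ± 111 CPM in knockout (SD, n = 6) and 469 ± 149 CPM in control libraries (SD, n = 9). The log2 change was -0.81 ± 0.16 (SE) with an adjusted p of 0.0190 in edgeR's quasi-likelihood test.

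That call depended on how the sets were handled. With set in place of sex the change was -0.60 (adjusted p = 0.0589), within set 1 it was -0.47 (0.642) and within set 2 it was -0.68 (0.123), all negative and none called. It was also lost without knockout replicate 1 (-0.71, 0.0932), without control replicate 8 (-0.79, 0.050) and among libraries labelled female alone (-0.71, 0.140), and it held without the 2 libraries whose Xist went against their label (-0.77, 0.0330).

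The gene lies on chromosome 16 (GRCm38, 17925223 to 17928219, minus strand). Its promoter is shown because Slc25a1 was the sole member called by genotype at 4 weeks. Capitals mark CACGTG, the E-box, which stands in 7.15% of the 32851 RefSeq promoters of the same length and in 6 of the 36 promoters found for 28 of the family's genes. Overlapping promoters of Slc25a14 hold the same site, so the 6 belong to 5 of the 28 genes. The sequence is RefSeq's for GRCm38.p6, chr16:17928170-17928469, minus strand, and runs from upstream of the transcription start to shortly after it.
Slc25a1 promoter: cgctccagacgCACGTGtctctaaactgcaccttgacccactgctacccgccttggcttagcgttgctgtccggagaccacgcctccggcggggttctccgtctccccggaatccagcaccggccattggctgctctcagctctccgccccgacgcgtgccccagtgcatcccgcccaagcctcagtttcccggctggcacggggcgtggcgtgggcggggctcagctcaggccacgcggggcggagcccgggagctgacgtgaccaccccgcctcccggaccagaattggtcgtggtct

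No other carrier of di- or tricarboxylates was called. Slc25a10, the dicarboxylate carrier, had a log2 change of 0.52 ± 0.27 (adjusted p = 0.349) and Slc25a11 one of 0.03 ± 0.11. Among the 6 carriers of phosphate and adenine nucleotides none was called and 5 changes were positive: Slc25a3 stood at 0.47 ± 0.15 (adjusted p = 0.132), Slc25a4 at 0.14 and Slc25a5, the ADP/ATP carrier ANT2, at 0.14 ± 0.20. The sixth, Slc25a24, a calcium-regulated carrier of ATP-Mg and phosphate, was at -0.71 ± 0.28 (adjusted p = 0.234).

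Slc25a46, an outer membrane member that acts in mitochondrial dynamics and is not known to carry a metabolite, ran over 150.5, 189.5 and 303 CPM (lowest, median and highest) in knockout libraries, against 79.2, 133 and 180.5 CPM in control libraries. In set 1 the 2 knockout libraries, at 150.5 and 163 CPM, lay above the 4 controls, of which the highest had 121 CPM. In set 2 the groups met, at 177 CPM for the lowest knockout and 180.5 CPM for the highest control library. The log2 change was 0.44 ± 0.15 with sex in the fit (adjusted p = 0.165) and 0.52 with set in its place, where the adjusted p was 0.0391 and Slc25a46 was the member called. On the opposite strand the gene overlaps B930094E09Rik, and the strand setting of the counting was not given in the sources used here. Slc25a46 was called in the authors' deposited table, with a log2 change of 0.45 (adjusted p = 0.0207), and Slc25a1 stood at -0.52 (0.0540).

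The remaining roles held no call at 4 weeks. Of 6 amino acid carriers, Slc25a29, which carries basic amino acids, had 0.73 ± 0.26 (adjusted p = 0.175), Slc25a22 had -0.86 ± 0.35 (0.249) and Slc25a44, the branched-chain amino acid carrier, 0.08. Of 9 cofactor and nucleotide carriers, Slc25a16, linked to coenzyme A transport, had -0.58 ± 0.18 (0.137) and Slc25a33, a pyrimidine nucleotide carrier, 0.45 ± 0.14 (0.141). Slc25a16 averaged 18.0 ± 2.20 CPM in knockout and 26.5 ± 7.84 CPM in control libraries (SD, n = 6 and 9). Slc25a37, the mitoferrin 1 that brings iron into the matrix, had 0.31 and Slc25a39 had 0.30 ± 0.14 (0.296).

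**Figure D2:**
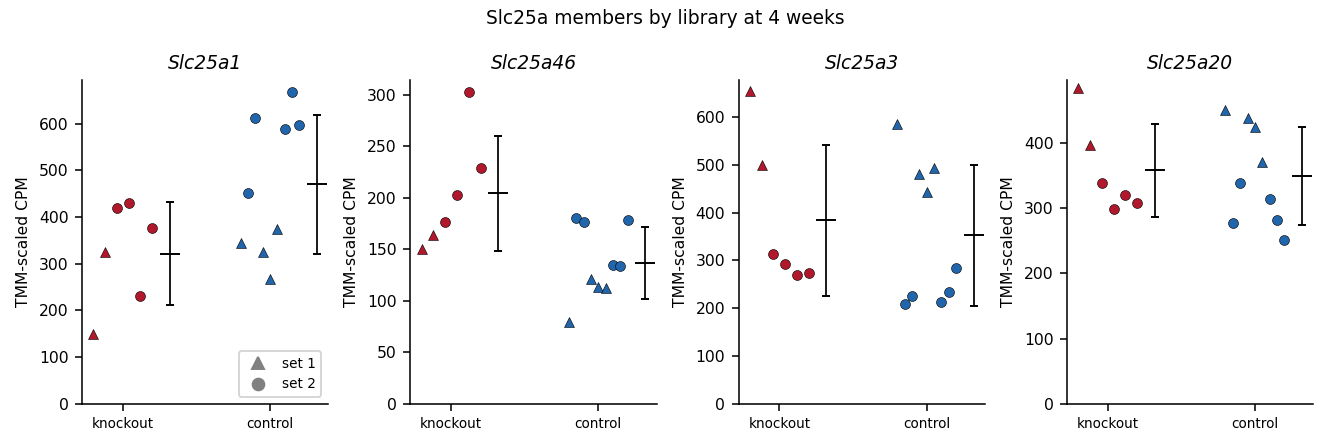
CPM of Slc25a1, Slc25a46, Slc25a3 and Slc25a20 in each library at 4 weeks, knockout left of control, triangles for set 1 and circles for set 2. Slc25a3 and Slc25a20 part by set in both genotypes, with every set 1 library above every set 2 library.

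Between libraries labelled female and those labelled male, 14 members were called, against 35.2% of all genes tested (edgeR's quasi-likelihood test). Slc25a1, Slc25a32, Slc25a46 and Slc25a48 were higher in libraries labelled female, and Slc25a3, Slc25a5, Slc25a15, Slc25a17, Slc25a20, Slc25a23, Slc25a33, Slc25a35, Slc25a40 and Slc25a42 were lower, against 17.8% of all genes higher and 17.4% lower. Of these, Slc25a32 carries folate and FAD, Slc25a15 ornithine, Slc25a17 cofactors of the peroxisome and Slc25a23 ATP-Mg and phosphate. Slc25a3 changed by -1.07 ± 0.15 (adjusted p = 1.53e-04) and Slc25a20 by -0.53 ± 0.12 (0.00203), while Slc25a1 changed by 0.94 ± 0.16 (4.82e-04). Slc25a40 changed by -1.95 ± 0.37 (7.94e-04) and Slc25a33 by -0.77 ± 0.15 (8.36e-04). By library, Slc25a3 had 500.0 and 654 CPM in the knockout and 443 to 586 CPM in the control libraries of set 1, and 269 to 314 CPM in the knockout and 208 to 284 CPM in the control libraries of set 2. With set beside sex in the fit, none of the 36 was called for sex by edgeR and 1 had an unadjusted p below 0.05. Only knockout replicate 2 then tells sex and set apart, and its Xist, at 1.57 CPM, went against its label. By Xist the library that parts sex from set would be control replicate 6, in set 1 with 236 CPM. That fit therefore cannot decide between sex and set, and for the most part they cannot be told apart. The mitochondrial share and the erythroid sum moved with the same division, and their part in these values was not tested.

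At 21 weeks on a normal diet the same genotype question was asked in older females. Again 1 of 36 members was called, lower in knockout tissue, against 2.65% of all 12082 genes tested and 1.36% lower (edgeR's quasi-likelihood test). It was Slc25a48, a carrier whose substrate was long unknown and which has been linked to choline uptake into mitochondria. Changes were positive for 17 members, with a median of -0.04 against 0.02 over all genes, and 25% of the members against 20.8% of all genes had an unadjusted p below 0.05.

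Slc25a48 (chromosome 13, GRCm38, 56438355 to 56474239, plus strand) had 35.2, 16.0, 21.2, 12.7 and 22 CPM in knockout normal diet libraries 1 to 5, against 93.9, 42.6, 18.5, 135 and 86.0 CPM in control normal diet libraries. Control replicate 3 lay among the knockout libraries, and the other 4 controls lay above all of them. The log2 change was -1.81 ± 0.47 with an adjusted p of 0.0459.

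On the high fat diet Slc25a48 had 20.9, 52.9, 26, 15.7 and 13.5 CPM in knockout libraries, against 72.1, 32, 64.7, 108 and 59.8 CPM in control libraries. The groups overlapped by knockout replicate 2 and control replicate 2. The change was -1.39 ± 0.46 and was not called (adjusted p = 0.626). Averaged over both diets, a contrast added after the single diets had been seen, Slc25a48 fell by 1.60 ± 0.33 on the log2 scale (adjusted p = 0.0131), 3.03-fold lower in knockout tissue. It was the sole member called in that contrast, where 3% of all genes were and 1.42% were lower. At 4 weeks its change was -0.35 ± 0.24 (adjusted p = 0.499), at means of 106 ± 36.0 CPM in knockout (SD, n = 6) and 117 ± 71.0 CPM in control libraries (SD, n = 9).

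The normal diet call was not firm. It was lost without knockout replicates 2, 3, 4 or 5 (adjusted p = 0.105, 0.0858, 0.0986 and 0.0881) and without control replicates 1, 4 or 5 (0.0681, 0.108 and 0.0629), with changes of -1.49 to -1.82 in these fits. It was also lost without the 2 libraries whose muscle sum exceeded 10000 CPM (-1.63, 0.147) and with a score of the muscle markers as a covariate (-1.95, 0.109). The averaged change was called in all 20 fits that left out 1 library (adjusted p 0.00145 to 0.0313), without the 2 muscle-rich libraries (-1.51, 0.0325) and with the muscle score as a covariate (-1.69, 0.0336). In the authors' deposited table Slc25a48 had a log2 change of -3.32 (adjusted p = 0.00302); over 12082 genes that table's values followed the sum of both diets' genotype effects with a slope of 0.964, so it is set against a sum and not a mean.

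**Figure D3:**
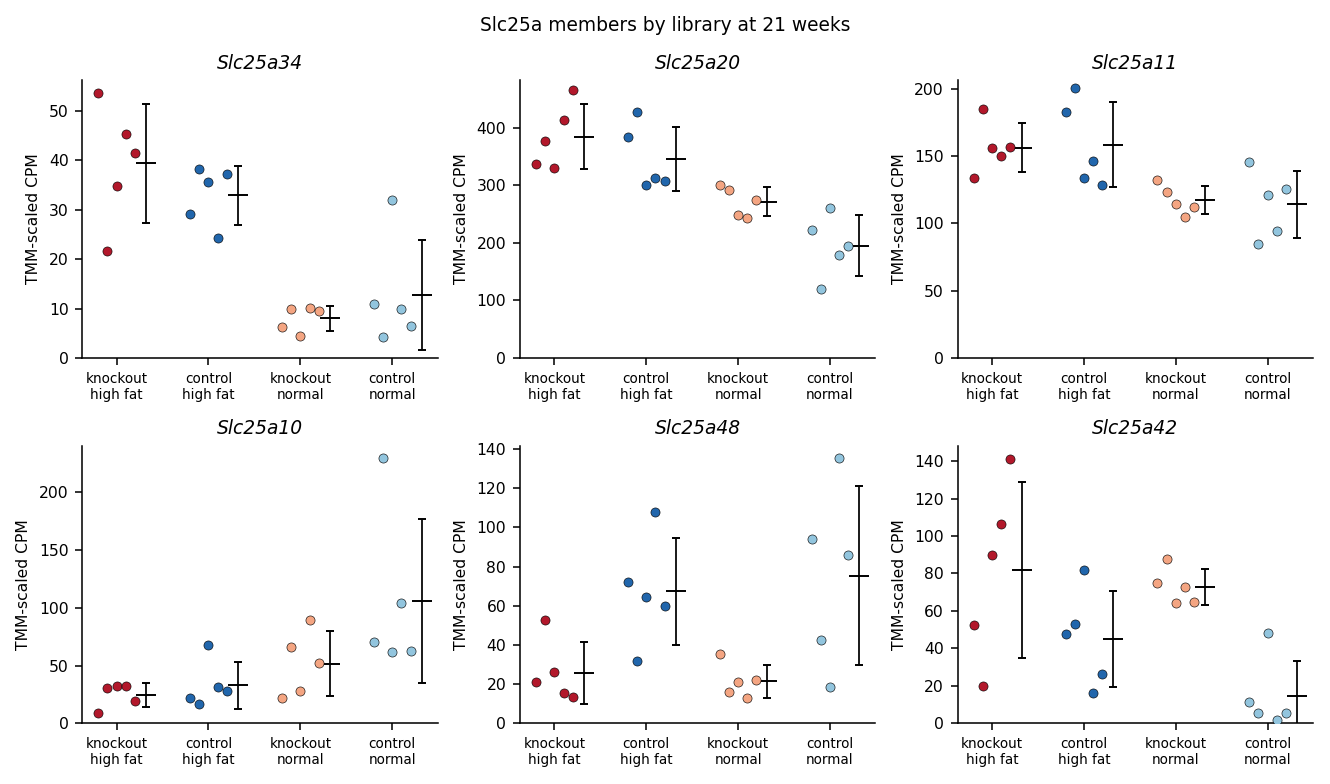
CPM of Slc25a34, Slc25a20, Slc25a11, Slc25a10, Slc25a48 and Slc25a42 in each library at 21 weeks, in the order knockout high fat, control high fat, knockout normal diet, control normal diet, with group means and SD (n = 5). Slc25a34 and Slc25a20 are higher in the high fat groups, and Slc25a48 is lower in knockout tissue on both diets.

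Slc25a42, which imports coenzyme A, had higher levels in knockout tissue on the normal diet. Knockout libraries had 74.9, 87.8, 64.0, 72.9 and 64.7 CPM, against 11.3, 5.51, 48.1, 1.80 and 5.32 CPM in control libraries. The groups did not overlap, and the change of 2.26 ± 0.67 was not called (adjusted p = 0.0773, edgeR's quasi-likelihood test). On the high fat diet Slc25a42 had 52.6, 19.8, 89.8, 106 and 141 CPM in knockout and 47.6, 53.0, 81.6, 16.3 and 26.1 CPM in control libraries, a change of 0.87 that was not called. Without control normal diet replicate 3 the normal diet change was 3.51 (0.00353), and DESeq2 called it on all libraries (2.31, 0.0123).

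Of the 8 adipocyte markers, all of them counted, 5 had positive genotype changes on the normal diet (median 0.24, none called). By diet in control tissue 2 of the 8 had positive changes (median -0.13, none called). Their sum was 18648 to 39478 CPM in knockout high fat, 13764 to 34895 in control high fat, 26749 to 35367 in knockout normal diet and 9365 to 27324 CPM in control normal diet libraries. Control normal diet replicate 3 had the highest adipocyte sum of its group and the highest Slc25a42, and replicate 4 the lowest of both. In both high fat groups the lowest adipocyte sum and the lowest Slc25a42 also shared a library, and the highest did not. In knockout normal diet libraries neither the highest nor the lowest did. The part of the adipocyte markers in the Slc25a42 values was not tested. At 4 weeks Slc25a42 had a change of -0.08.

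Within groups Slc25a42 varied with Slc25a22, a glutamate carrier. The deviations of the log2 levels from the group means had a Pearson r of 0.94 (Spearman rho 0.89) over the 20 older libraries, and 0.90 with the 2 libraries farthest out left aside. Over the 15 younger libraries, with deviations taken within genotype and set, r was 0.80 (rho 0.83), and 0.73 with 2 libraries left aside. Slc25a48 ran against Slc25a22, with an r of -0.82 (rho -0.74) in the older and -0.80 (rho -0.69) in the younger libraries, and -0.70 and -0.58 with the same 2 libraries of each experiment left aside. Slc25a5 went with Slc25a22, at 0.79 in the older and 0.69 in the younger libraries, and 0.76 and 0.47 without those libraries. These were the pairs taken after the correlations had been seen, and the 2 genes of a pair are read from the same libraries.

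**Figure D4:**
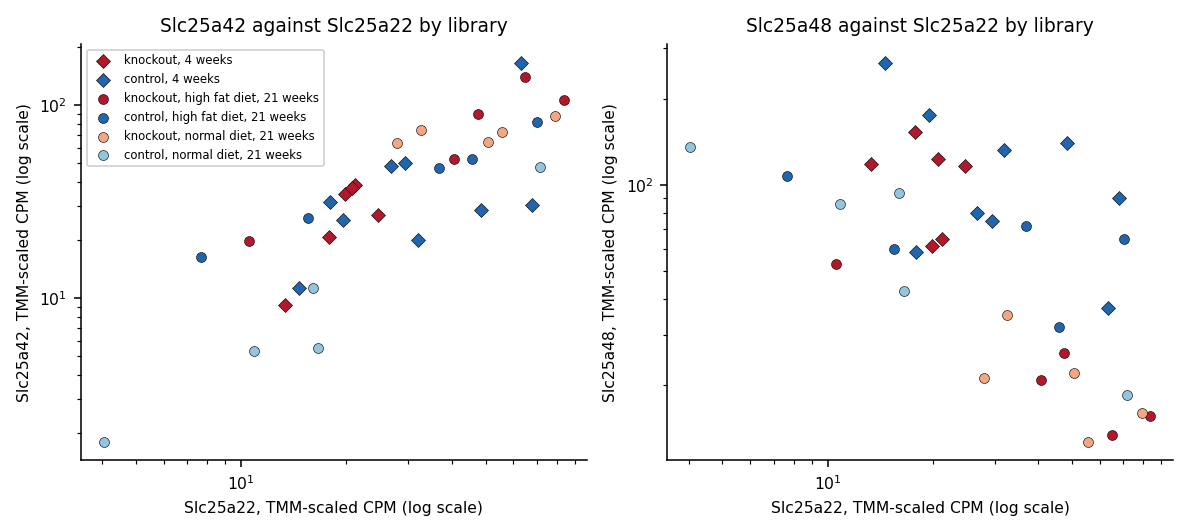
Slc25a42 (left) and Slc25a48 (right) against Slc25a22 in each library, in CPM on logarithmic axes. In the older libraries Slc25a42 is higher and Slc25a48 lower where Slc25a22 is higher, and control normal diet replicate 3 stands apart from its group.

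Slc25a44 and Slc25a12, both amino acid carriers, had lower means in knockout tissue on the normal diet without passing the test. Slc25a44, through which branched-chain amino acids enter brown fat mitochondria as fuel, had 105, 113, 115, 79.4 and 90.0 CPM in knockout normal diet libraries, against 163, 86.2, 126, 171 and 169 CPM in controls. The groups overlapped through control replicate 2 alone. The change was -0.51 ± 0.19 (adjusted p = 0.127), on the high fat diet -0.37 ± 0.19 (0.999), and averaged over diets -0.44 ± 0.13 (0.0683). The averaged value was called without control normal diet replicate 2 (-0.51, 0.0244), without control normal diet replicate 3 (-0.46, 0.0491), without knockout high fat replicate 2 (-0.49, 0.0396) and with DESeq2 (adjusted p = 0.0259). The authors' deposited table gives Slc25a44 -0.95 (0.0263) and Slc25a42 3.90 (0.0328) on its summed scale.

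Slc25a12, a carrier of the malate-aspartate shuttle that is abundant in muscle, had 0.845, 0.786, 0.847, 4.84 and 2.47 CPM in knockout normal diet libraries. Control normal diet libraries 2 to 5 had 18.5, 8.12, 30.6 and 5.32 CPM, and replicate 1 had no count, which allows up to 0.469 CPM (3 counts). The change was -2.56 ± 0.83 (adjusted p = 0.0900). The libraries with the most Slc25a12 were those with the highest muscle sums, and with the muscle score in the fit the change was -0.40. Slc25a4, the ADP/ATP carrier of heart and muscle, had its highest value, 1344 CPM, in the library with the highest muscle sum. The other control normal diet libraries had 502 to 878 CPM, among them replicate 4, with the next highest muscle sum, at 542 CPM. Knockout normal diet libraries had 548 to 741 CPM.

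Slc25a5 had 128, 236, 164, 259.6 and 208 CPM in knockout normal diet libraries, against 87.7, 41.6, 114, 46.3 and 102 CPM in control normal diet libraries. The groups did not overlap, and the change of 1.34 ± 0.44 had an adjusted p of 0.0980. On the high fat diet the change was 0.32, with 90.1 to 331 CPM in knockout and 67.2 to 305 CPM in control libraries. Slc25a25, a calcium-regulated carrier of ATP-Mg and phosphate, had changes of 0.15 on the high fat and 0.75 on the normal diet. Slc25a4 had changes of -0.09 on the high fat and -0.25 on the normal diet. The pseudogene Slc25a5-ps, on chromosome 14, could share tags with Slc25a5, and how the counting treated such tags was not given in the sources used here. Slc25a3 stood at 368 ± 27.9 CPM in knockout and 416 ± 59.5 CPM in control normal diet libraries (SD, n = 5 each).

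On the high fat diet none of the 36 members was called between knockout and control tissue by edgeR's quasi-likelihood test, and 0.116% of all genes were called. A single member, Slc25a48, had an unadjusted p below 0.05 (2.78% of the family, against 5.07% of all genes), and DESeq2 and limma-voom each called none. Medians were 0.01 for the members and -0.01 for all genes. The interaction of genotype and diet also called no member and 0% of all genes. No member had an unadjusted p below 0.05 in edgeR, against 6.39% of all genes, and DESeq2 and limma-voom called none. The interaction's lowest p-values belonged to changes of 0.46 ± 0.23 for Slc25a3 (adjusted p = 0.784), -0.79 ± 0.41 for Slc25a37 (0.787) and 0.95 ± 0.53 for Slc25a34 (0.827). In simulated counts with planted changes, the genotype comparison on the high fat diet recovered 23% of 2-fold and 77% of 4-fold changes. For the interaction these shares were 2% and 59%, so a missing call does not show that such changes are absent.

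Set side by side, the genotype changes at 4 weeks, on the normal diet and on the high fat diet were all positive for Slc25a5, Slc25a20, Slc25a25, Slc25a33, Slc25a35 and Slc25a38, among others, and all negative for 5 (Slc25a1, Slc25a12, Slc25a24, Slc25a32 and Slc25a48). These comparisons share no libraries. Slc25a1 had -0.81 ± 0.16 at 4 weeks, -0.72 ± 0.50 on the normal diet (adjusted p = 0.434) and -0.30 ± 0.50 on the high fat diet (0.999). Across the 36 members, which are not independent replicates, Pearson's r was -0.02 between 4 weeks and the normal diet at 21 weeks, 0.39 between 4 weeks and the high fat diet and 0.63 between the 2 diets.

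**Figure D5:**
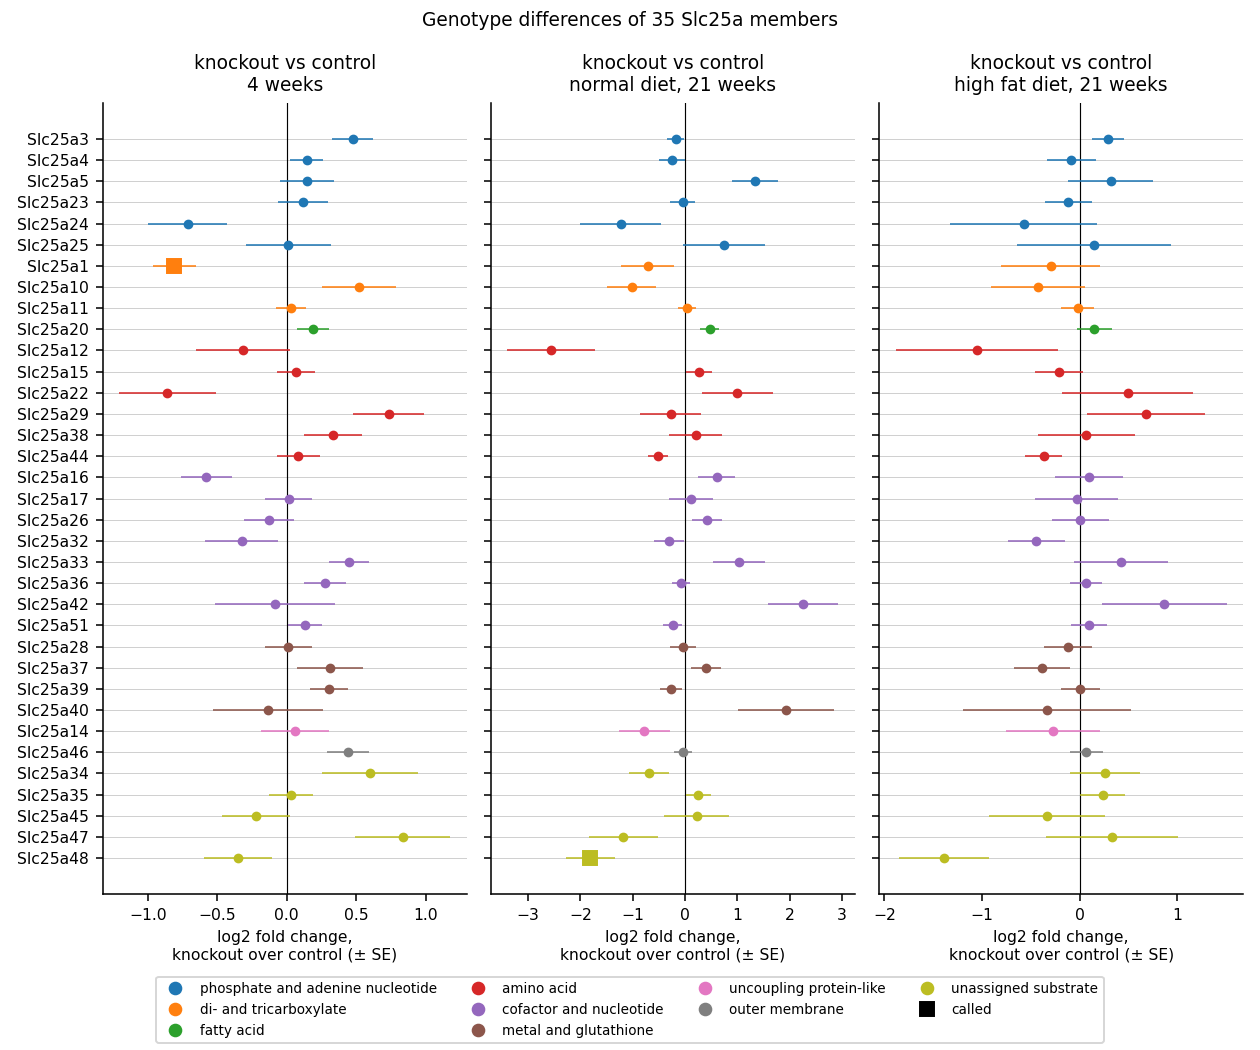
Log2 change of knockout against control tissue with its SE for 35 carriers, grouped by role, at 4 weeks, on the normal diet and on the high fat diet; squares mark adjusted p below 0.05, and the panels have different scales. Squares appear for Slc25a1 at 4 weeks and for Slc25a48 on the normal diet, with none on the high fat diet.

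The effect of the high fat diet was measured within each genotype. In knockout tissue 1 of 36 members was called, Slc25a34, which rose, against 0.372% of all genes tested and 0.182% higher. In control tissue 1 member, Slc25a20, rose, against 0.795% of all genes and 0.406% higher (edgeR's quasi-likelihood test). Averaged over genotypes, a contrast added after the single ones were seen, Slc25a34, Slc25a20 and Slc25a11 rose and Slc25a10 fell, 4 of 36 against 3.63% of all genes, 1.93% higher and 1.71% lower. At an unadjusted p below 0.05 there were 7 members in knockout tissue (19.4%, against 9.21% of all genes) and 14 in control tissue (38.9%, against 16.2%). The summed level of brown adipocyte markers, 12 of 12 counted, was 17844 to 22986 CPM in knockout high fat libraries, against 12533 to 17343 CPM in knockout normal diet libraries, and 19212 to 23234 CPM in control high fat libraries, against 11584 to 19869 CPM in control normal diet libraries. The ranges of the high fat and normal diet libraries did not overlap in knockout tissue and overlapped in control tissue. The erythroid sum was 1580 to 2695 CPM in knockout high fat libraries, against 1147 to 4273 CPM in knockout normal diet libraries, which overlapped, and 2401 to 4667 CPM in control high fat libraries, against 1274 to 2012 CPM in control normal diet libraries, which did not. The part of both marker lists in the carriers' diet changes was not tested.

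Slc25a34, a member with no established substrate, had 53.6, 21.6, 34.7, 45.2 and 41.5 CPM in knockout high fat libraries, against 6.19, 9.95, 4.45, 10.1 and 9.47 CPM in knockout normal diet libraries. All high fat libraries lay above all normal diet ones. The log2 change was 2.28 ± 0.39 (adjusted p = 0.0124), and it was called in all 10 fits that left out 1 library of the compared groups (0.0125 to 0.0440).

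In control tissue Slc25a34 had 29.2, 38.2, 35.6, 24.3 and 37.2 CPM on the high fat diet, against 10.8, 4.26, 32, 9.89 and 6.52 CPM on the normal diet. Normal diet replicate 3 lay among the high fat libraries, and the other 4 lay below them all. The change of 1.33 ± 0.38 was not called (adjusted p = 0.0807), and without replicate 3 it was 2.06 (0.00189). Averaged over genotypes the level rose 3.50-fold (log2 change 1.81 ± 0.27, adjusted p = 7.41e-04), and with the muscle score as a covariate the change was 1.85 with an adjusted p of 0.0599.

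Slc25a20, the carnitine/acylcarnitine carrier on the route of long-chain fatty acids to oxidation, had 337, 377, 329.6, 413 and 466 CPM in knockout high fat libraries, against 300.1, 292, 249, 243 and 276 CPM in knockout normal diet libraries. The groups did not overlap, and the change of 0.50 ± 0.18 was not called (adjusted p = 0.317). In control tissue it had 383, 427, 301, 312 and 307 CPM on the high fat diet, against 222, 119.7, 261, 179 and 195 CPM on the normal diet, again without overlap. That change, 0.82 ± 0.18, was called (0.0334), and the difference between genotypes in the response was -0.32 ± 0.26 (0.875).

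Averaged over genotypes Slc25a20 rose 1.58-fold (log2 change 0.66 ± 0.13, adjusted p = 0.00436). In control tissue the call was lost without control high fat replicates 1 or 2 (adjusted p = 0.0945 and 0.117) and without control normal diet replicates 2 or 4 (0.0740 and 0.0562). Control normal diet replicates 2 and 4, which had the lowest Slc25a20 levels, had the highest muscle sums. Without them the averaged change was 0.56 (adjusted p = 0.0103), and with the muscle score as a covariate it was 0.46 (0.425).

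The promoters of Slc25a34 and Slc25a20, the members that rose in a diet comparison within 1 genotype, are shown for comparison, from RefSeq for GRCm38.p6, each running from upstream of the transcription start to shortly after it. Slc25a34 lies on chromosome 4 (141618824 to 141623821, minus strand) and its promoter is chr4:141623785-141624084 on the minus strand. Slc25a20 lies on chromosome 9 (108662088 to 108684641, plus strand) and its promoter is chr9:108661886-108662185 on the plus strand. Capitals mark TGACCT, the reverse complement of the nuclear receptor half-site AGGTCA.
Slc25a34 promoter: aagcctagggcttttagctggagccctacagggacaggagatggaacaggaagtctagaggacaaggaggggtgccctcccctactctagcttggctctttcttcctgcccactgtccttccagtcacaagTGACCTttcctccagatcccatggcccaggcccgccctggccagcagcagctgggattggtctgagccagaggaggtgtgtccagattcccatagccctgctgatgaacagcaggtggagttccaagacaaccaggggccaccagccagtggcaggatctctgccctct
Slc25a20 promoter: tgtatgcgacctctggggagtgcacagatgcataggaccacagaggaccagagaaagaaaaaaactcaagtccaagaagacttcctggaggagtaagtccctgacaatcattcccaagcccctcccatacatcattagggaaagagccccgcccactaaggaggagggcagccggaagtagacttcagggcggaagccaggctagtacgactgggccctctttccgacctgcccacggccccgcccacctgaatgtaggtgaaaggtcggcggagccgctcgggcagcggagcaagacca
The half-site was searched on both strands and stood in 16.3% of 32851 promoters and in 4 of the family's 36. Its direct repeat with any base between the copies, known as DR1, stood in 0.0396% of all promoters and in none of the family's. The letters TCACNCCAC, the core of a sterol response element, stood in 1.24% and in none of the family's. A match is a description of these windows and not a binding site.

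The carriers of di- and tricarboxylates divided. Slc25a11, which exchanges oxoglutarate for malate, had 134, 185, 156, 150.4 and 157 CPM in knockout high fat libraries, against 132, 124, 114, 105 and 112 CPM in knockout normal diet libraries. Control libraries had 183, 201, 134, 146 and 129 CPM on the high fat diet, against 146, 84.4, 121, 94.4 and 126 CPM on the normal diet. Knockout libraries did not overlap between diets and control libraries did. The averaged change was 0.44 ± 0.12 (adjusted p = 0.0396, edgeR's quasi-likelihood test). Slc25a11 overlaps Rnf167 on the opposite strand.

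Slc25a10, the dicarboxylate carrier, had 8.65, 30.4, 32.4, 32.7 and 19.2 CPM in knockout high fat libraries, against 22.2, 66.3, 28.2, 89.8 and 52.3 CPM in knockout normal diet libraries. Control libraries had 21.9, 16.4, 68.1, 31.4 and 27.7 CPM on the high fat diet, against 70.0, 229, 62.1, 104 and 62.8 CPM on the normal diet. Diets overlapped in both genotypes, in control tissue through high fat replicate 3 alone. The averaged change was -1.37 ± 0.34 (adjusted p = 0.0312). The gene has an annotated antisense partner, Gm11788.

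Neither of these averaged calls was firm. Slc25a11 lost its call in 11 of 20 fits with 1 library left out, namely knockout high fat replicates 2, 3 and 5, control high fat replicates 1 and 2, knockout normal diet replicates 2, 3, 4 and 5 and control normal diet replicates 2 and 4, with adjusted p up to 0.0896. Slc25a10 lost it in 10, namely knockout high fat replicates 1 and 5, control high fat replicates 1, 2, 4 and 5, knockout normal diet replicates 2, 4 and 5 and control normal diet replicate 2, with adjusted p up to 0.0657. Without the 2 muscle-rich libraries the changes were 0.35 (adjusted p = 0.106) for Slc25a11 and -1.01 (0.105) for Slc25a10, and with the muscle score as a covariate 0.20 (0.808) and -0.65 (0.680).

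Slc25a1 averaged 222 ± 185 CPM in knockout and 272 ± 227 CPM in control high fat libraries, against 392 ± 79.0 CPM in knockout and 644 ± 287 CPM in control normal diet libraries (SD, n = 5 each). In each high fat group replicate 3, at 549 CPM in knockout and 665 CPM in control tissue, lay far above the other 4, which had 113 to 186 CPM in knockout and 119.8 to 270.4 CPM in control tissue. The diet changes were -0.82 ± 0.51 in knockout (adjusted p = 0.699) and -1.24 ± 0.51 in control tissue (0.231), and without control high fat replicate 3 Slc25a1 was among the 3 members called in control tissue.

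Of the other roles, Slc25a51 had 995, 1702, 1093, 1175 and 1016 CPM in knockout high fat libraries, against 1119.9, 614, 601, 873 and 722 CPM in knockout normal diet libraries. The groups overlapped through normal diet replicate 1. Its change was 0.61 ± 0.19 (adjusted p = 0.208), and Slc25a46 had 0.47 in knockout and 0.35 in control tissue. Slc25a15, the ornithine carrier, had 0.33 in knockout and 0.81 ± 0.25 in control tissue (adjusted p = 0.103). Slc25a47, a member known mainly from liver, had -1.98 ± 0.68 in control tissue (0.139) at means of 1.07 ± 0.760 CPM on the high fat and 4.39 ± 3.56 CPM on the normal diet (SD, n = 5 each). Across the 36 members the diet changes of both genotypes, which share no libraries, had an r of 0.59, with 15 members positive in both and 12 negative in both.

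Few of the genes that work beside the family were called by genotype or diet in the same fits with edgeR's quasi-likelihood test. Of 5 carriers not named Slc25a (Ucp1, Ucp2, Ucp3, Mtch1 and Mtch2) none was called in a genotype comparison or in a diet comparison within 1 genotype. In the diet contrast averaged over genotypes, where 3.63% of all genes were called, Ucp1 was higher on the high fat diet (0.81 ± 0.15, adjusted p = 0.00319), as was Mtch2 (0.46 ± 0.12, 0.0273). Of 22 other genes of mitochondrial metabolite and ion transport tested at 21 weeks, Cpt1b, which makes the acylcarnitines that Slc25a20 carries, was not called by diet in knockout tissue (0.86 ± 0.21, 0.0702) and was higher on the high fat diet in control tissue (0.98 ± 0.21, 0.0278). Averaged over genotypes Cpt1b was higher on the high fat diet (0.92 ± 0.15, 8.96e-04). At 4 weeks none of 20 was called by genotype, with 15 positive. Of 12 genes that import carrier proteins into mitochondria, Timm8b was called, higher in knockout tissue at 4 weeks (0.63 ± 0.15, 0.0498), where 0.83% of all genes were called, and no other was called by genotype or diet.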

How the data were processed

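RNA of brown adipose tissue had been made into 3′ tag libraries by oligo-dT priming, per the labels' protocols. The deposited tables hold the authors' whole-number counts per gene, made with STAR 2.5.3a and featureCounts on mm10 and GRCm38, per the submitters' processing notes. Annotation, strand setting and filters were not given in the sources used here. Deposited limma tables of the authors give log2 fold changes and adjusted p-values. In the second experiment 18 rows named as dates, 0.0900% of counts, were left out.

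Counts were tested per experiment over all genes with edgeR 4.0.16 in R 4.3.3 (TMM, filterByExpr with a minimum count of 10, robust quasi-likelihood fit), with labelled sex as a term at 4 weeks and 4 group means at 21 weeks. Genes were called at an adjusted p below 0.05. DESeq2 1.42.0, limma-voom 3.58.1, other scaling, no filter, set terms, a muscle covariate, a replicate block and left-out libraries were alternatives. Scripts were tested on simulated data. No 2 libraries of the same group were alike within sampling noise (lowest chi-square 5.19 per gene), and libraries of different groups were not compared in this way. Members named by rule were those called, the 2 with the lowest p in each genotype, diet or interaction comparison, the 5 with the lowest p for labelled sex, and Slc25a1, Slc25a3, Slc25a4, Slc25a5, Slc25a10, Slc25a20, Slc25a25, Slc25a37, Slc25a42 and Slc25a44 for their roles; others named were picked after their values were seen. Some results are not reported here. The members, roles and gene lists were chosen with earlier results of these data known.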

Additional observations from a re-analysis of the deposited data

Results flagged for a closer look

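Among 78 groups of libraries over 13 members, 2 held a library far from the others, and chance alone flags about 1 group in 20. Slc25a40, a paralogue of the glutathione carrier, had 2.87 CPM in control normal diet replicate 3 at 21 weeks, while the other 4 libraries of that group had no count, which allows up to 0.469 to 1.25 CPM (3 counts per library, counting error only). Beside 4 libraries without a count, any count in the remaining one is flagged, so the rate of 1 in 20 does not hold for Slc25a40. Slc25a44, the branched-chain amino acid carrier, had 66.3 CPM in control replicate 1 at 4 weeks, and the other 8 controls had 115 to 167 CPM.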

How the results depend on the processing

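Of 202 alternatives to the 9 counts of called members, 151 stayed within 1.5 times the count given and 51 did not. An unchanged count can hold another member: with set in place of sex at 4 weeks Slc25a46 was called and Slc25a1 was not. By genotype at 4 weeks the count was 2 with DESeq2 and 0 for libraries labelled female alone, without the sex term, with the replicate block, within set 1 and within set 2, and it ran over 0 to 1 with 1 library left out. For labelled sex it was 0 with set beside sex and 13 to 16 with 1 library left out. By genotype on the normal diet it was 4 with DESeq2, 0 with limma-voom, 0 with the muscle covariate, 0 with the replicate block, 0 without the muscle-rich libraries, and 0 to 5 with 1 library left out (5 without control normal diet replicate 3). By genotype on the high fat diet and for the interaction it stayed at 0 in every alternative run. By diet in control tissue it was 6 with DESeq2, 0 with the compared groups alone, 0 with the muscle covariate, 0 with the replicate block, 0 without the muscle-rich libraries, and 0 to 4 with 1 library left out (4 without control normal diet replicate 3 and 3 without control high fat replicate 3). By diet in knockout tissue it was 1 in every alternative run. By genotype averaged over diets it was 5 with DESeq2, 2 with limma-voom, 0 with the replicate block, 2 without the muscle-rich libraries and 1 to 4 with 1 library left out. By diet averaged over genotypes it was 8 with DESeq2, 7 with limma-voom, 0 with the muscle covariate, 2 without the muscle-rich libraries and 2 to 7 with 1 library left out (7 without control normal diet replicate 3). The share of all genes called in each alternative fit is not given here. A count that moved therefore says nothing on the family apart from other genes. Why the counts moved was not tested. The averaged contrasts and the fits without the libraries whose Xist went against the label were chosen after seeing the data.

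Of 524 alternatives to 23 single-member values, 451 kept their direction and side of the threshold, 61 lost the call, 10 gained it and 2 turned: Slc25a3 by genotype at 4 weeks to -0.052 with the replicate block (adjusted p = 0.945), and Slc25a40 by labelled sex to 0.10 with set beside sex (0.999). At 21 weeks replicate numbers did not in general pair the libraries. Deviations of same-numbered libraries from their group means correlated above 0.1 in 6 of 30 pairs (-0.45 to 0.27). At 4 weeks they did so in 2 of 6 pairs (-0.57 to 0.58), which cannot decide the question. Set was not taken out there, and the correlation was positive where both libraries were of the same set and negative where they were not. With the replicate number as a block Slc25a1 stood at -0.32 at 4 weeks (0.571), and Slc25a48 at -1.72 on the normal diet (0.105) and -1.52 averaged over diets (0.0525). Depth limits Slc25a40, Slc25a25, Slc25a47 and Slc25a12, with means of a few CPM.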
